A study of Mus musculus with 12 samples.

Results

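The genes described here are markers of kidney tubule injury. They are 9 named genes: Havcr1, Lcn2, Clu, Spp1, Gdf15, Tnfrsf12a, Cd44, Vim and Sox9. Their members on the array were the probe sets whose platform annotation names exactly 1 gene, that gene being one of the 9. The rule found 19 of 45101 probe sets, for 7 of the 9 genes: 4 each for Clu and Cd44, 3 each for Vim and Sox9, 2 each for Havcr1 and Tnfrsf12a, and 1 for Lcn2. Spp1 (osteopontin) and Gdf15 were not analysed here, since no probe set names them alone. Of the 19 probe sets, 15 passed a filter on low signals, at least 1 for each of the 7 genes.

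Whole kidneys of male mice aged 8 weeks were compared in 4 groups of 3 arrays. TLR4 null mice were of the C57BL/10ScNJ strain, which lacks Toll-like receptor 4, an innate immune receptor for bacterial lipopolysaccharide. Wild-type (WT) mice were C57BL/10. Ischemic kidneys of each genotype had the left renal pedicle clipped for 23 min and were collected at 4 h of reperfusion, and sham kidneys had the clip laid under the pedicle. All 4 groups, sham included, had lost the right kidney in the same operation. The null allele came with its own substrain, so the lack of TLR4 and any other difference between the substrains cannot be told apart. The labels call the 3 arrays of each group biological replicates, and the number of arrays limits the precision of every value below.

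A tubule cell that is deprived of blood loses polarity and transport functions and, if it survives, enters a program of dedifferentiation and repair. Several genes of that program encode proteins that are shed into urine or secreted, and are measured as early signs of acute kidney injury. Havcr1 encodes KIM-1, a surface receptor that lets proximal tubule cells engulf dead neighbours, and Lcn2 encodes lipocalin-2 (NGAL), a secreted protein that binds iron-carrying siderophores. Clu encodes clusterin, an extracellular chaperone, and Tnfrsf12a encodes FN14, the receptor for the cytokine TWEAK. Cd44 encodes a receptor for hyaluronan and osteopontin, Vim the intermediate filament protein vimentin of mesenchymal and dedifferentiated cells, and Sox9 a transcription factor of regenerating tubule cells.

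The Tlr4 gene was checked first. The Tlr4 probe set 1418162_at had signals of 0.901 to 3.38 on the 6 TLR4 null arrays and of 65.6 to 120 on the 6 WT arrays. On another Tlr4 probe set, 1418163_at, the ranges lay closer together, at 6.33 to 60.4 on TLR4 null arrays and 72.9 to 135 on WT arrays. The median signal was 61.3 on the lowest and 77.6 on the highest array. Correlations of log2 values across all probe sets ran over r = 0.961 to 0.974 for pairs of arrays of 1 group and r = 0.948 to 0.974 for other pairs. Markers of the kidney's own cells were high in all groups: the summed signal of 8 proximal tubule genes was 58739 to 63927 in TLR4 null ischemic, 64238 to 70594 in TLR4 null sham, 54468 to 66135 in WT ischemic and 56802 to 63041 in WT sham kidneys. A set of 5 fat genes varied widely between arrays. Its summed signal was 3057 to 15102 in TLR4 null ischemic and 4697 to 8684 in TLR4 null sham kidneys. It was 6305 to 21234 in WT ischemic and 7978 to 13829 in WT sham kidneys. All 4 of the fat genes past the filter were lower in TLR4 null than in WT kidneys after either surgery. Their median difference was -1.17 log2 units after ischemia and -0.84 after sham surgery, and none was called. The part of fat in the results was not tested.

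Promoters from RefSeq (GRCm38.p6) were on hand for 5 of the 7 measured genes, 7 promoters in all, and 4 of them are printed. Each runs from 250 bases before an annotated start to 50 bases after it. Tnfrsf12a (chr17:23677400-23677699, minus strand) and Lcn2 (chr2:32387690-32387989, minus strand) are shown because they had the largest responses of the 7 genes. The 3rd of the Havcr1 promoters (chr11:46750918-46751217, plus strand) and that of Vim (chr2:13574061-13574360, plus strand) are shown because they hold the AP-1 and kB motifs. All motif matches in the 4 are in capitals. Motifs in promoters that are not printed are given after them.
Tnfrsf12a: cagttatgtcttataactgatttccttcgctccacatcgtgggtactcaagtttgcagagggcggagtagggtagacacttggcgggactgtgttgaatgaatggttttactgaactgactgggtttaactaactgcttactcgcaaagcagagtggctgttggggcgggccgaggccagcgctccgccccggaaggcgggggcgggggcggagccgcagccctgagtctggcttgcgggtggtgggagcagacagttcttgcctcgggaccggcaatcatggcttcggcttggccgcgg
Lcn2: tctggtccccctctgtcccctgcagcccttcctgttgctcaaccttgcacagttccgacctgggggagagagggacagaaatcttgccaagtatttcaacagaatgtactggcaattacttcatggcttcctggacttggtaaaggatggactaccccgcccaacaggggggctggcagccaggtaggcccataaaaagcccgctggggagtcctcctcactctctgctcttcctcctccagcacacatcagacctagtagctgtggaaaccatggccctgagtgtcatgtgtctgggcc
Havcr1: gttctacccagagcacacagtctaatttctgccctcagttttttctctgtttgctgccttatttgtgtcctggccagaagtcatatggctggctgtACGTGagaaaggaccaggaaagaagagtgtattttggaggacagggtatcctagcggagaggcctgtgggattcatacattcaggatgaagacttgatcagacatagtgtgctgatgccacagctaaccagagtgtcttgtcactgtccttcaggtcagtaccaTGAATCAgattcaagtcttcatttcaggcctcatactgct
Vim: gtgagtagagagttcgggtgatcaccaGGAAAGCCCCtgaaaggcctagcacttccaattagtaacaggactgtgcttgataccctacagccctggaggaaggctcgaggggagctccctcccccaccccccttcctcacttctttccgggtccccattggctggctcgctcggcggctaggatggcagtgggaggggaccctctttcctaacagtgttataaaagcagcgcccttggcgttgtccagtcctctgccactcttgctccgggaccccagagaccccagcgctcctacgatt

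In these windows 6 motifs were searched on both strands. With positions counted from 1 at the annotated start, and from -1 just before it, the Havcr1 promoter held the AP-1 motif (TGANTCA) as TGAATCA from position 11 and the hypoxia core (ACGTG) from position -154. The Vim promoter held the kB motif of NF-kB on its other strand, printed here as GGAAAGCCCC, from position -223. These letters are common: of 32851 promoters of the same length, 7.81% held the AP-1 motif, 19.6% the hypoxia core and 4.79% the kB motif. The hypoxia core was also in 2 promoters that are not printed, from position -29 in that of Cd44 and from position -239 in another of Havcr1, which held the heat shock element (GAANNTTC, 7.86% of promoters) too. The CRE motif (TGACGTCA, 1.79%) and the ATF4-CEBP composite (TGATGNAA, 3.97%) were in none of the 7 member promoters. The windows of Tnfrsf12a and Lcn2 held none of the 6. A match describes letters in a window and is not a binding site.

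The first comparison asks how the injury markers answered ischemia in each genotype. Signals are MAS5 intensities as deposited, and differences are on the scale of log2(signal + 15), which understates the change of dim genes. Each gene is represented by its probe set with the highest mean. Tnfrsf12a, Lcn2, Clu, Vim and Cd44 rose in both genotypes, by 0.88 to 3.36 log2 units in TLR4 null and by 0.79 to 3.11 in WT kidneys. These 5 genes passed the filter on all 12 arrays. Havcr1 and Sox9 passed it through the ischemic arrays, since only 2 of the 6 sham arrays of Havcr1 and none of Sox9 exceeded it, so their differences could be tested only because ischemic signals were the higher ones and are given as descriptions. They were at 1.67 and 1.78 in TLR4 null kidneys, under an adjusted p of 0.05, and at 1.33 and 0.78 in WT kidneys, where neither was.

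These counts stand against a broad response. Of 14316 genes tested, 9.86% were called higher and 11.7% lower in TLR4 null kidneys, and 9.18% were called higher and 10.5% lower in WT kidneys. With the arrays scaled to equal medians, the calls in TLR4 null kidneys were 1180 higher and 1030 lower, against 1412 higher and 1676 lower as deposited, and those in WT kidneys 1290 higher and 665 lower, against 1314 higher and 1501 lower. The 5 genes that passed the filter on all 12 arrays rose by 0.88 to 3.36 in TLR4 null and by 0.79 to 3.11 in WT kidneys. The median difference over all genes was -0.07 in TLR4 null and -0.09 in WT kidneys. The 7 genes were picked as injury markers with earlier results of these arrays known, so their direction is a description. Over all genes, 13.9% in TLR4 null and 15.6% in WT kidneys had ischemic signals wholly above the sham signals. Of the 7, that held in both genotypes for Tnfrsf12a, Lcn2, Clu, Vim and Cd44, which passed the filter on all 12 arrays. Havcr1 and Sox9 passed it through their ischemic arrays, so their separation is only described, further below, and not counted here.

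Tnfrsf12a, the TWEAK receptor, had the largest rise of the 7 genes in both genotypes. Its representing probe set had signals of 3205, 6885 and 6706 in TLR4 null ischemic kidneys, against 453, 507 and 550 in TLR4 null sham kidneys. In WT kidneys it had 6674, 6118 and 5111 after ischemia and 783, 669 and 587 after sham surgery. Every ischemic array lay far above every sham array, and replicate 1 of the TLR4 null ischemic kidneys was the lowest of the ischemic arrays. The difference was 3.36 ± 0.22 log2 units (SE, adjusted p = 8.3e-08) in TLR4 null and 3.11 ± 0.22 (adjusted p = 1.89e-07) in WT kidneys, or 10.3-fold and 8.62-fold. Ranked by size of rise among 14316 genes, Tnfrsf12a stood at place 13 in TLR4 null and at place 22 in WT kidneys. Its other probe set, 1418571_at, had 5968, 6521 and 4969 in TLR4 null ischemic kidneys, where replicate 1 was not low, and gave 3.44 ± 0.15 in TLR4 null and 2.74 ± 0.15 in WT kidneys.

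Lcn2 rose next most. Its probe set had signals of 1433, 2472 and 1451 in TLR4 null ischemic kidneys, against 186, 154 and 303 in TLR4 null sham kidneys. In WT kidneys the signals were 3008, 3138 and 5090 after ischemia and 625, 527 and 663 after sham surgery. Both genotypes showed full separation of ischemic from sham arrays, and both TLR4 null groups lay below the WT group of the same surgery. The rise was 2.98 ± 0.25 log2 units (SE, adjusted p = 9.16e-07) in TLR4 null kidneys, a 7.87-fold change. In WT kidneys it was 2.56 ± 0.25 (adjusted p = 3.69e-06), a 5.91-fold change. Lcn2 stood at place 23 among the rises in TLR4 null and at place 47 in WT kidneys.

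Lipocalin-2 is also a granule protein of neutrophils, so markers of that cell are given beside it. Of 7 neutrophil genes past the filter, S100a8 and S100a9, a pair of calcium-binding proteins of myeloid cells, rose in both genotypes and the other 5 were not called. Over all genes 9.86% were called higher in TLR4 null and 9.18% in WT kidneys. S100a8 rose by 1.07 ± 0.21 in TLR4 null and by 1.34 ± 0.21 in WT kidneys. The summed signal of 9 neutrophil genes was 696 to 1072 in TLR4 null ischemic, 453 to 754 in TLR4 null sham, 983 to 1518 in WT ischemic and 626 to 831 in WT sham kidneys. Camp, a granule peptide gene, stayed at 4.01 to 14.4 on all 12 arrays, and Cxcr2, the neutrophil chemokine receptor, at 4.81 to 44.1, both below the filter. In whole tissue fewer cells of a type and less RNA per cell cannot be told apart, and the part of neutrophils in the Lcn2 values was not tested.

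**Figure D1:**
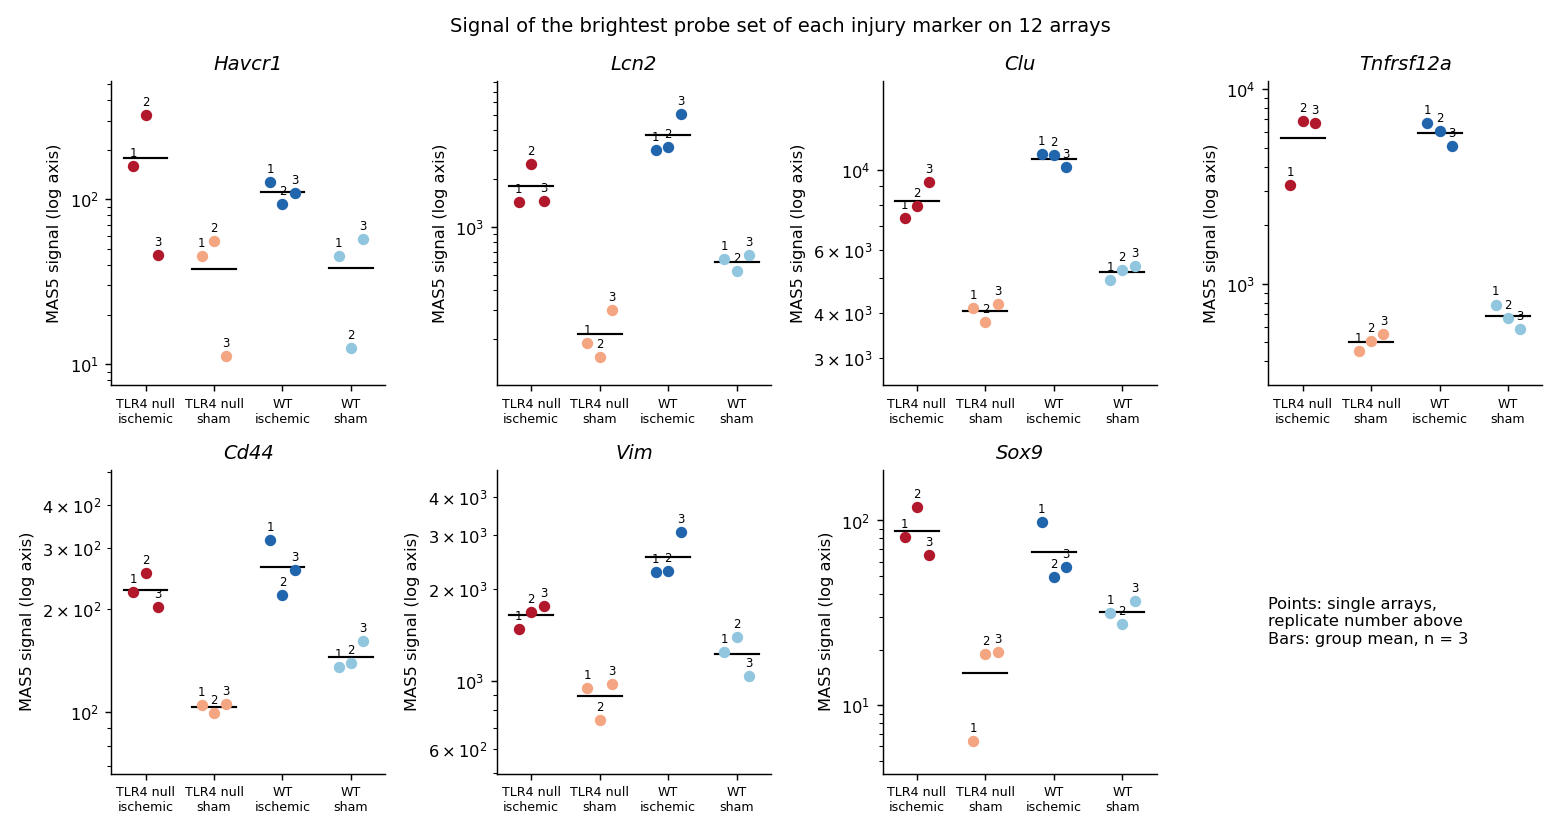
MAS5 signal (log axis) of the representing probe set of each of the 7 measured injury genes on 12 arrays, with points for single arrays, their replicate number above them, and bars for the mean of 3. Ischemic points lie above all sham points of their genotype for Tnfrsf12a, Lcn2, Clu, Vim and Cd44. Over all genes, 13.9% in TLR4 null and 15.6% in WT kidneys showed such a separation. Havcr1 and Sox9 passed the filter through their ischemic arrays, so their points are a description. The Lcn2 points of TLR4 null kidneys lie below those of WT kidneys after either surgery.

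Havcr1 had the largest SE of the 7 genes. Signals of its representing probe set were 160, 326 and 46.0 in TLR4 null ischemic kidneys, against 45.2, 56.2 and 11.2 in TLR4 null sham kidneys. In WT kidneys they were 128, 94.2 and 108 after ischemia and 45.3, 12.6 and 57.4 after sham surgery. In TLR4 null kidneys replicate 3 of the ischemic group fell below the highest sham array, so the groups overlapped, whereas in WT kidneys they did not. The mean was 177 ± 141 (SD) in TLR4 null ischemic and 37.5 ± 23.4 in TLR4 null sham kidneys, and 110 ± 16.9 in WT ischemic and 38.4 ± 23.2 in WT sham kidneys (n = 3 each).

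The Havcr1 difference was 1.67 ± 0.53 log2 units (SE, adjusted p = 0.0351) in TLR4 null kidneys. It was 1.33 ± 0.53 (adjusted p = 0.0956) in WT kidneys. The TLR4 null call was lost without ischemic replicate 2 (1.10, adjusted p = 0.169), without ischemic replicate 1 (1.58, adjusted p = 0.0969), without sham replicate 3 (1.23, adjusted p = 0.154) and without sham replicate 1 (1.83, adjusted p = 0.052). The other Havcr1 probe set, 1434716_at, passed the filter on the 6 ischemic and on none of the sham arrays, so its values are a description. It had 199, 368 and 68.4 in TLR4 null ischemic kidneys, against 49.5, 25.7 and 11.9 in TLR4 null sham kidneys. Its WT signals were 171, 73.6 and 168 after ischemia and 25.3, 6.88 and 9.67 after sham surgery. On this probe set ischemic arrays were above all sham arrays in both genotypes, and the difference was 2.20 ± 0.49 (adjusted p = 0.00551 over all probe sets) in TLR4 null and 2.37 ± 0.49 (adjusted p = 0.0034) in WT kidneys.

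Sox9 was dim in sham kidneys. Its representing probe set had signals of 81.1, 118 and 65.3 in TLR4 null ischemic kidneys, against 6.4, 19.0 and 19.4 in TLR4 null sham kidneys. In WT kidneys it had 97.7, 49.4 and 56.1 after ischemia and 31.6, 27.7 and 36.7 after sham surgery. Ischemic arrays were above sham arrays in both genotypes, and every sham array lay under the lowest filter threshold of 40.3, so this probe set was tested only because it was higher after ischemia. As a description, the difference was 1.78 ± 0.32 log2 units (SE, adjusted p = 0.00101) in TLR4 null kidneys. It was 0.78 ± 0.32 (adjusted p = 0.11) in WT kidneys.

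A dimmer Sox9 probe set below the filter, 1424950_at, gave a different picture for the WT kidneys. Its signals were 25.3, 87.6 and 27.8 in TLR4 null ischemic kidneys and 2.08, 1.99 and 1.33 in TLR4 null sham kidneys. In WT kidneys they were 41.5, 60.8 and 44.8 after ischemia and 3.89, 3.20 and 1.77 after sham surgery. All sham arrays were near 0, and all ischemic arrays were well above them. In a fit with no filter its difference was 1.74 ± 0.31 (adjusted p = 0.00252) in TLR4 null and 1.82 ± 0.31 (adjusted p = 0.00187) in WT kidneys. The last Sox9 probe set, 1433889_at, was also below the filter, with 20.4 to 26.1 in TLR4 null ischemic, 12.9 to 25.1 in TLR4 null sham, 4.43 to 12.5 in WT ischemic and 5.39 to 29.8 in WT sham kidneys.

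Clu rose in both genotypes, with the smallest SE of the 7 genes. The representing probe set had signals of 7366, 7943 and 9271 in TLR4 null ischemic kidneys, against 4125, 3780 and 4238 in TLR4 null sham kidneys. In WT kidneys it had 11036, 11010 and 10199 after ischemia and 4937, 5278 and 5390 after sham surgery. All ischemic arrays were above all sham arrays, and the TLR4 null groups lay wholly below the WT groups of the same surgery. The rise was 1.01 ± 0.09 log2 units (SE, adjusted p = 1.49e-06) in TLR4 null kidneys. It was 1.04 ± 0.09 (adjusted p = 1.08e-06) in WT kidneys. Across the 4 Clu probe sets the rise was 0.95 to 1.01 in TLR4 null and 1.04 to 1.44 in WT kidneys.

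Vim and Cd44, the genes of a filament protein and of a matrix receptor, also rose. Vim had signals of 1476, 1683 and 1759 in TLR4 null ischemic kidneys, against 950, 744 and 973 in TLR4 null sham kidneys. In WT kidneys it had 2268, 2288 and 3070 after ischemia and 1246, 1392 and 1034 after sham surgery. The groups did not overlap, and even the lowest WT sham array was above the highest TLR4 null sham array. The Vim rise was 0.88 ± 0.14 log2 units (SE, adjusted p = 0.000383) in TLR4 null and 1.04 ± 0.14 (adjusted p = 8.84e-05) in WT kidneys. The other Vim probe sets rose by 1.18 and 1.28 in TLR4 null and by 1.01 and 1.09 in WT kidneys.

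Cd44 had signals of 223, 254 and 202 in TLR4 null ischemic kidneys, against 105, 99.5 and 106 in TLR4 null sham kidneys. In WT kidneys it had 317, 219 and 260 after ischemia and 135, 139 and 162 after sham surgery. Sham arrays lay close together and below all ischemic arrays. The rise was 1.02 ± 0.15 log2 units (SE, adjusted p = 0.000213) in TLR4 null and 0.79 ± 0.15 (adjusted p = 0.0017) in WT kidneys. Another Cd44 probe set, 1423760_at, rose by 1.08 ± 0.19 in TLR4 null and by 0.86 ± 0.19 in WT kidneys. The other Cd44 probe sets were below the filter. One of them, 1452483_a_at, had 4.00 to 24.9 in TLR4 null ischemic, 5.26 to 11.9 in TLR4 null sham, 26.9 to 46.7 in WT ischemic and 1.34 to 8.36 in WT sham kidneys, so that only the WT groups separated. The other, 1443265_at, stayed under 10 on every array.

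The next comparison asks whether the response to ischemia differed between genotypes. No gene of the 14316 passed the test of that difference, so the share called was 0%, with 910 genes at an unadjusted p under 0.05 and a smallest adjusted p of 0.244. None of the 7 injury genes passed either. By representing probe set Sox9 had the smallest p of the 7, with a response 1.01 ± 0.46 log2 units larger in TLR4 null kidneys (SE, unadjusted p = 0.0428, adjusted p = 0.77, 95% interval 0.04 to 1.98). In a fit with no filter its probe sets below the filter gave -0.08 ± 0.44 (1424950_at) and 0.82 ± 0.43 (1433889_at), so the 3 Sox9 probe sets did not show that difference alike. In the fit of all probe sets 1418571_at of Tnfrsf12a and 1418626_a_at of Clu had smaller unadjusted p, at 0.00403 and 0.00936, and neither passed after adjustment.

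For the other genes the intervals say how large a difference these arrays leave possible. By representing probe set the Clu response, with the narrowest interval, differed by -0.04 log2 units (95% interval -0.30 to 0.23), and that of Vim by -0.16 (-0.59 to 0.26). Cd44 differed by 0.23 (-0.23 to 0.69), Tnfrsf12a by 0.25 (-0.41 to 0.92) and Lcn2 by 0.41 (-0.34 to 1.16). Havcr1, with its wide spread, differed by 0.34 (-1.26 to 1.94).

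Other probe sets of 2 genes gave intervals that did not span 0. For Clu, 1418626_a_at differed by -0.42 ± 0.14 (SE, 95% interval -0.73 to -0.12, adjusted p = 0.678) and 1437689_x_at by -0.37 ± 0.15 (-0.69 to -0.06, adjusted p = 0.718), while 1437458_x_at differed by -0.16 ± 0.13 (-0.44 to 0.12). For Tnfrsf12a, 1418571_at differed by 0.71 ± 0.21 (0.26 to 1.15, adjusted p = 0.579). Which probe set represents these genes therefore moves the value, and no injury probe set passed over all probe sets. An adjusted p that misses the threshold does not show that the responses were alike.

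**Figure D2:**
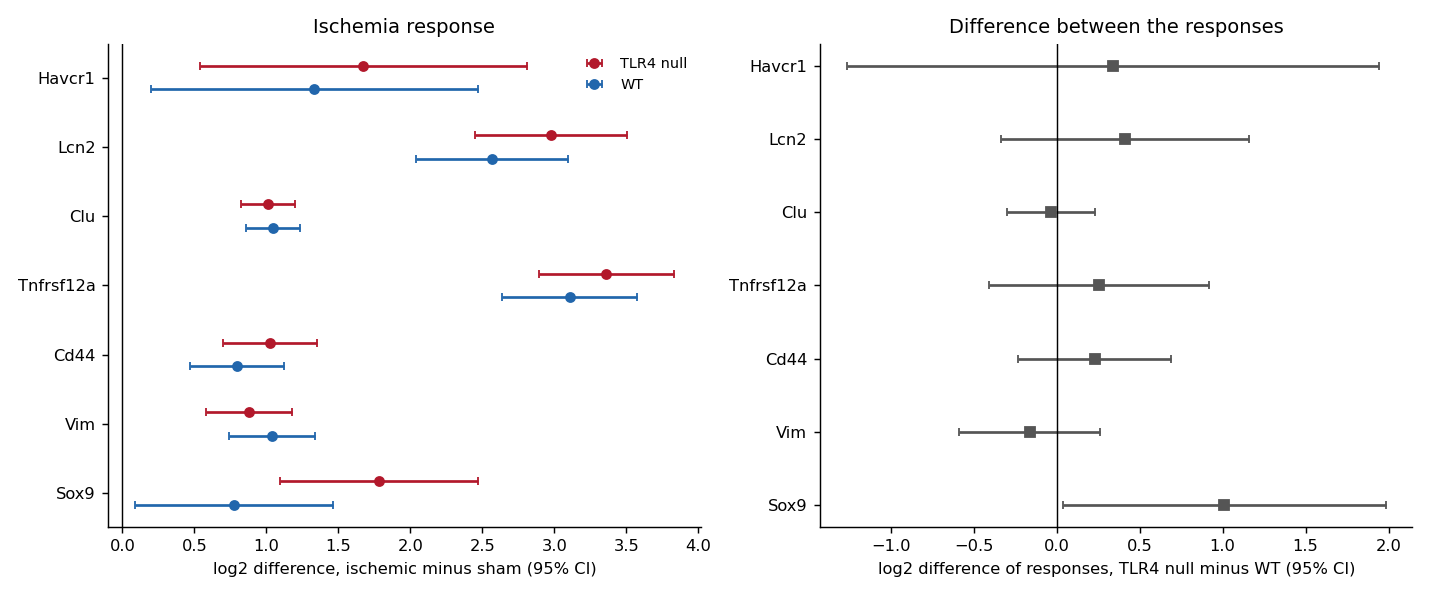
Left, log2 difference of ischemic minus sham kidneys for the 7 injury genes in TLR4 null and WT mice, and right, the TLR4 null response minus the WT response, all with 95% intervals from limma over 12 arrays. Every response is above 0 in both genotypes, but Havcr1 and Sox9 passed the filter through their ischemic arrays, so theirs are a description. For these representing probe sets every interval of the difference between responses except that of Sox9 spans 0.

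The genotypes were then compared within each surgery. In sham kidneys Lcn2 was lower in TLR4 null than in WT mice, and it was the 1 injury gene called, where 0.224% of all genes were called lower. All 7 genes had a mean difference below 0, with the sign of Havcr1 turning under quantile normalization and median scaling, and their median difference was -0.43 beside -0.01 over all genes. Lcn2 averaged 215 ± 78.6 in TLR4 null sham and 605 ± 70.0 in WT sham kidneys (SD, n = 3 each), a difference of -1.48 ± 0.25 log2 units (SE, adjusted p = 0.0181). The lowest WT sham array, at 527, was above the highest TLR4 null sham array, at 303. This call was lost with any 1 of the 3 WT sham arrays left out (adjusted p = 0.0663 to 0.102), without TLR4 null sham replicate 1 (0.0771) or 2 (0.0982), and with eBayes run without a trend (0.159).

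The other sham differences did not pass. They were -0.68 ± 0.32 for Sox9, -0.45 ± 0.14 for Vim, -0.43 ± 0.15 for Cd44, -0.42 ± 0.22 for Tnfrsf12a, -0.36 ± 0.09 for Clu and -0.03 ± 0.53 for Havcr1, with adjusted p from 0.117 to 0.994. Clu was called under quantile normalization (-0.44, adjusted p = 0.0175) and with array weights (-0.34, adjusted p = 0.0445). By representing probe set all TLR4 null sham arrays lay below all WT sham arrays for 6 of the 7 genes, the exception being Havcr1. Over all genes 8.62% showed such a separation. For Sox9 the sham signals, 6.4 to 36.7, lay under the lowest filter threshold of 40.3. Its other probe sets overlapped between the sham groups. So did 1418626_a_at of Clu, at 1452 to 1637 in TLR4 null and 1511 to 1865 in WT sham kidneys. The other Havcr1 probe set had a difference above 0, at 0.57 ± 0.49. The sham arrays of a genotype also enter its ischemia response, so a low TLR4 null sham value makes that response larger, and these comparisons are not independent of each other.

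In ischemic kidneys none of the 7 genes was called between the genotypes, where 0.517% of all genes were called lower and 0.14% higher. Vim, Clu and Lcn2 came close, with differences of -0.62 ± 0.14 (SE, adjusted p = 0.0564), -0.40 ± 0.09 (adjusted p = 0.0555) and -1.07 ± 0.25 (adjusted p = 0.0624). For these 3 genes every TLR4 null ischemic array was below every WT ischemic array, a separation that 7.63% of all genes showed. Lcn2 averaged 1785 ± 595 in TLR4 null ischemic and 3746 ± 1166 in WT ischemic kidneys, and Clu 8193 ± 976 in TLR4 null ischemic and 10748 ± 476 in WT ischemic kidneys (SD, n = 3 each). In the fit of all probe sets, where 0.32% were called lower, 2 of the 4 Clu probe sets passed: 1437689_x_at at -0.58 ± 0.10 (adjusted p = 0.0266) and 1418626_a_at at -0.55 ± 0.10 (adjusted p = 0.0314).

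The remaining 4 genes had ischemic differences of -0.20 ± 0.15 for Cd44, -0.16 ± 0.22 for Tnfrsf12a, 0.31 ± 0.53 for Havcr1 and 0.33 ± 0.32 for Sox9. By representing probe set, the order of the groups followed from these values. For Tnfrsf12a, Cd44, Sox9 and Havcr1 the arrays of the 2 ischemic groups overlapped, and the means of both were above those of both sham groups. Lcn2 ran from TLR4 null sham over WT sham and TLR4 null ischemic to WT ischemic kidneys, with no overlap between any neighbouring groups, and Clu and Vim had the same order of groups without overlap. Some other probe sets differed. The TLR4 null ischemic arrays lay wholly below the WT ischemic arrays on 1423760_at of Cd44, and wholly above them on 1433889_at of Sox9, which was below the filter. On 1418626_a_at of Clu the sham groups overlapped.

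The order of single arrays within a group was counted over the 7 genes only, with no share over all genes, and is a description. Some ranks rest on near-equal signals, such as 105 and 106 for Cd44 in replicates 1 and 3 of the TLR4 null sham group. In the TLR4 null ischemic group replicate 2 was the highest of the 3 arrays for 5 of the 7 genes, and replicate 1 or 3 was the lowest for each. In the TLR4 null sham group replicate 3 was the highest for 6 of the 7, and replicate 1 of the WT ischemic and replicate 3 of the WT sham group were the highest for 5 each. Without replicate 3 of the TLR4 null ischemic group, 15 of all genes were called for the difference between responses and 245 between genotypes after ischemia, against 0 and 94 with it. Of the injury genes, Clu (-0.49, adjusted p = 0.0107) and Vim (-0.67, adjusted p = 0.0485) were then called lower in TLR4 null ischemic kidneys.

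**Figure D3:**
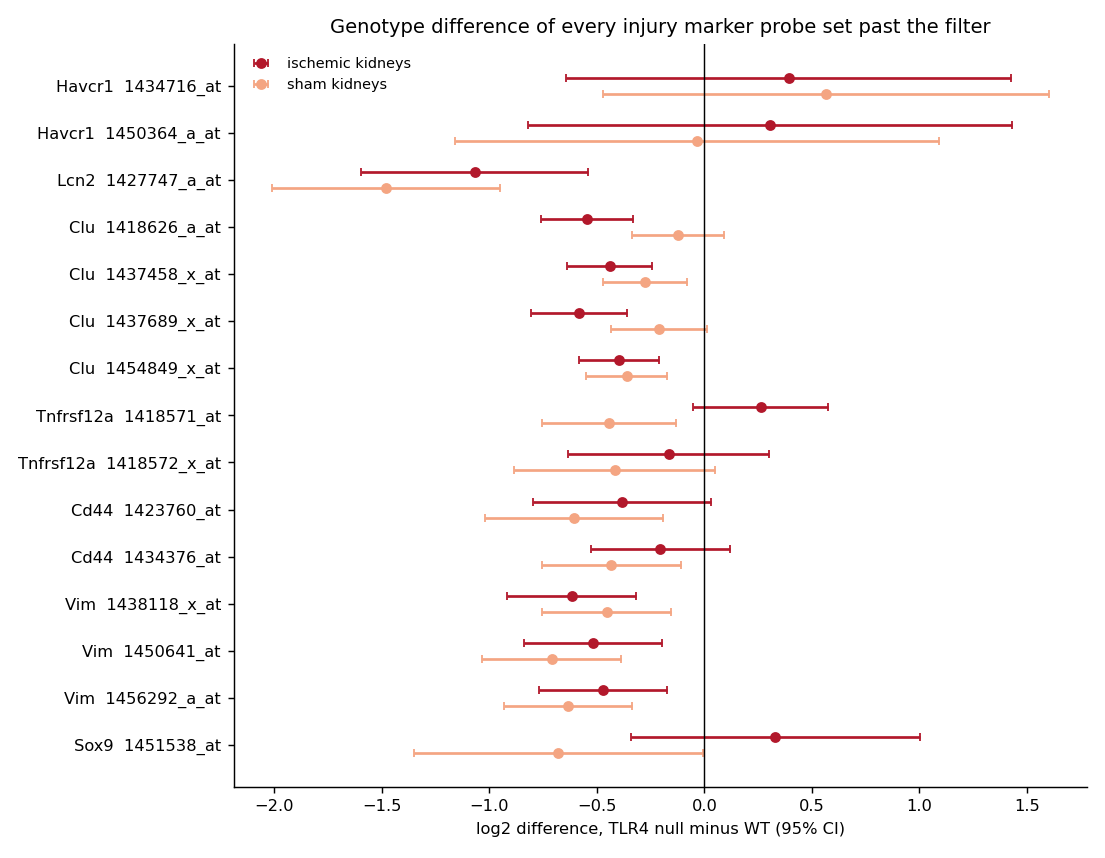
Log2 difference of TLR4 null minus WT with 95% intervals for the 15 injury probe sets past the filter, in ischemic and in sham kidneys. Most points lie below 0 (11 of 15 in ischemic and 14 of 15 in sham kidneys), the Lcn2 points lie farthest below, and the 2 Havcr1 probe sets have intervals that span 0 in both.

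Collagen genes moved with genotype too and stand beside the Vim values, since vimentin is abundant in fibroblasts. Col3a1, a fibrillar collagen, was lower in TLR4 null kidneys, at -1.85 ± 0.23 after ischemia (adjusted p = 0.00283) and -1.19 ± 0.23 after sham surgery (adjusted p = 0.0428). Over all genes 0.517% were called lower in TLR4 null than in WT kidneys after ischemia and 0.224% after sham surgery. Of 10 fibroblast and smooth muscle genes, 3 were called lower after ischemia and 2 after sham surgery, namely Col1a1 and Col3a1 in both and Col1a2 after ischemia. Their summed signal was 5070 to 6479 in TLR4 null ischemic and 6542 to 10401 in WT ischemic kidneys, and 6415 to 6564 in TLR4 null sham and 7979 to 9314 in WT sham kidneys. Macrophages also express Cd44 and Vim. Of 10 macrophage genes past the filter, Cd14 and Cd68 rose after ischemia in both genotypes, while C1qa and C1qb fell in TLR4 null and Csf1r in WT kidneys. Over all genes 9.86% were called higher and 11.7% lower in TLR4 null kidneys, and 9.18% higher and 10.5% lower in WT kidneys. Between genotypes 1 of the 10 macrophage genes was called lower in TLR4 null kidneys after ischemia and 0 after sham surgery. The TLR4 null value was above WT for 1 of the 10 after ischemia and for 0 after sham surgery, with medians of -0.33 and -0.28. The summed signal of 11 macrophage genes was 2623 to 2861 in TLR4 null ischemic, 2687 to 2913 in TLR4 null sham, 3081 to 3361 in WT ischemic and 3218 to 3459 in WT sham kidneys. The part of either cell type in the Vim and Cd44 values was not tested.

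The genes that act with the injury markers were counted from lists. Beside every list count stand the shares over all genes. These were 9.86% called higher and 11.7% lower in TLR4 null kidneys, and 9.18% higher and 10.5% lower in WT kidneys. Among 18 other genes of the injured tubule, 17 rose in TLR4 null and 18 in WT kidneys, with medians of 1.88 and 1.69. The largest rise was that of Krt20, a keratin of simple epithelia, at 6.80 ± 0.40 in TLR4 null and 5.66 ± 0.40 in WT kidneys. Atf3, a transcription factor of the cellular stress response, rose by 4.45 ± 0.33 in TLR4 null and by 5.12 ± 0.33 in WT kidneys. Krt8, a keratin of tubule cells, rose by 2.34 ± 0.08 in TLR4 null and by 1.91 ± 0.08 in WT kidneys, and Lgals3, the gene of galectin-3, by 2.65 ± 0.13 in TLR4 null and by 2.17 ± 0.13 in WT kidneys. Ccn2, a matrix-associated growth factor gene, was the member not called in TLR4 null kidneys, at 0.33 ± 0.13 (adjusted p = 0.0803). In sham kidneys none of the 18 was called between genotypes, where 0.224% of all genes were called lower. All 18 had TLR4 null values below WT there, with a median of -0.40 beside -0.01 over all genes. In ischemic kidneys none was called either, and 4 of the 18 were above 0. Their median there was -0.26, beside 0.005 over all genes. The list was chosen with earlier results of these data known, so these directions are a description.

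**Figure D4:**
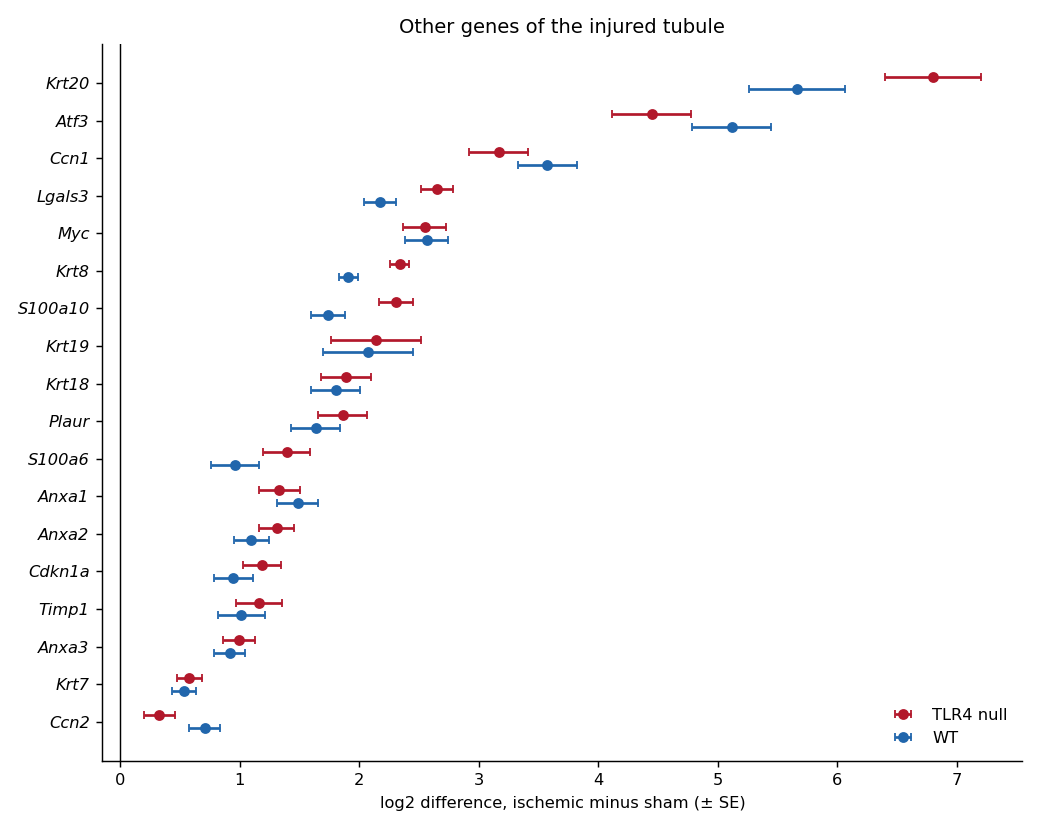
Log2 difference (± SE, limma over 12 arrays) of ischemic minus sham kidneys for 18 other genes of the injured tubule in TLR4 null and WT mice. All points lie above 0, from 0.33 for TLR4 null Ccn2 to 6.80 for TLR4 null Krt20.

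Around lipocalin-2, 10 genes were measured, and 4 rose and 2 fell in each genotype. Those that rose were factors that can drive Lcn2 transcription: Nfkbiz, an IkB-family co-activator, by 1.99 ± 0.12 in TLR4 null and by 2.18 ± 0.12 in WT kidneys, Stat3, Cebpb and Cebpd. Stat3, a cytokine-responsive transcription factor, rose by 1.00 ± 0.09 in TLR4 null and by 0.92 ± 0.09 in WT kidneys, and like Lcn2 it was lower in TLR4 null sham kidneys, at -0.47 ± 0.09 (adjusted p = 0.0352). The genes that fell were Lrp2 and Cubn, which encode megalin and cubilin, the proximal tubule receptors that take up filtered proteins. Lrp2 was at -0.52 ± 0.10 in TLR4 null and at -0.33 ± 0.10 in WT kidneys, and Cubn at -0.40 ± 0.11 in each.

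Among TWEAK and FN14 pathway genes, Relb and Nfkb2, subunits of the non-canonical NF-kB pathway, were called higher in both genotypes, and the other 5 of 7 were not called. Relb passed the filter on the 6 ischemic and on none of the sham arrays, so its differences of 2.15 ± 0.37 in TLR4 null and 2.00 ± 0.37 in WT kidneys are a description. Tnfsf12, the gene of TWEAK itself, gave no value past the filter. Of 18 ligands and partners of osteopontin and CD44, 6 rose and 2 fell in TLR4 null and 5 rose and 1 fell in WT kidneys. The 6 that rose include Itga5, an integrin subunit gene that passed the filter on the 6 ischemic and on 1 of the sham arrays. Its TLR4 null difference of 1.36 ± 0.42 is therefore a description, and it was not called in WT kidneys. Itgb6, an integrin subunit of epithelia, rose by 1.84 ± 0.14 in TLR4 null and by 1.59 ± 0.14 in WT kidneys. Ezr, whose product ezrin links CD44 to actin, rose by 0.87 ± 0.09 in TLR4 null and by 0.92 ± 0.09 in WT kidneys, and Hyal2, a hyaluronidase, was at -0.56 ± 0.11 in TLR4 null and at -0.50 ± 0.11 in WT kidneys.

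Of 7 genes linked to GDF15, the stress factors Egr1, Trib3, Ddit3 and Atf4 rose in both genotypes. Ddit3, the gene of the unfolded-protein factor CHOP, rose by 2.45 ± 0.11 in TLR4 null and by 2.32 ± 0.11 in WT kidneys, and Atf4 by 1.70 ± 0.11 in TLR4 null and by 1.5 ± 0.11 in WT kidneys. Of 6 clusterin partners and chaperones, 3 rose in TLR4 null and 4 in WT kidneys. Hspa1a, an inducible heat shock protein gene with a near-identical copy that its probes may also read, rose by 3.80 ± 0.37 in TLR4 null and by 4.79 ± 0.37 in WT kidneys. Hspb1, a small heat shock protein gene, rose by 2.48 ± 0.34 in TLR4 null and by 3.29 ± 0.34 in WT kidneys.

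Of 12 vimentin partners and cytoskeletal genes, 7 rose in each genotype. Tubb6, a tubulin gene, rose by 3.11 ± 0.40 in TLR4 null and by 2.92 ± 0.40 in WT kidneys, and Plec, whose product plectin crosslinks intermediate filaments, by 1.39 ± 0.13 in TLR4 null and by 1.10 ± 0.13 in WT kidneys. Des, the muscle filament gene desmin, was at -0.37 ± 0.56 in TLR4 null and 0.73 ± 0.56 in WT kidneys and was not called. Of 13 SOX9 relatives and progenitor genes, 5 rose and 1 fell in TLR4 null and 3 rose and 1 fell in WT kidneys. Cd24a, a surface protein gene of tubule progenitors, rose by 0.97 ± 0.14 in TLR4 null and by 0.66 ± 0.14 in WT kidneys, while Lhx1, a transcription factor of kidney development, was at -1.16 ± 0.15 in TLR4 null and at -0.97 ± 0.15 in WT kidneys. Prom1, the gene of the progenitor marker CD133, was lower in TLR4 null sham kidneys, at -0.66 ± 0.11 (adjusted p = 0.0189), and rose there after ischemia by 0.73 ± 0.11, while its WT difference of 0.25 ± 0.11 was not called.

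Of 9 relatives of Havcr1 and genes of dead cell uptake, none was called higher in either genotype. Mertk and Dock1, a receptor and a signalling gene of phagocytosis, fell in TLR4 null kidneys, at -0.43 ± 0.11 (adjusted p = 0.0081) and -0.42 ± 0.14 (adjusted p = 0.0479). Neither was called in WT kidneys, where Mertk was at -0.07 ± 0.11. Of 11 genes of urinary and plasma kidney markers, only Alb, the albumin gene, rose, by 1.28 ± 0.30 in TLR4 null and by 1.25 ± 0.30 in WT kidneys, and Calb1 (-0.63 ± 0.16) and Timp2 (-0.61 ± 0.11) fell in TLR4 null kidneys. Over all genes 9.86% were called higher in TLR4 null and 9.18% in WT kidneys, so 1 of 11 is near that share. Cst3, the cystatin C gene, was at -0.03 ± 0.08 in TLR4 null and 0.02 ± 0.08 in WT kidneys, and Umod, the uromodulin gene, at -0.12 ± 0.11 in TLR4 null and 0.06 ± 0.11 in WT kidneys.

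The genes with the pattern most like each injury marker were found over the 12 arrays, as the smallest root mean square difference of centred log2 values. They were Cxcl2 (0.28) and Ifrd1 (0.28) for Tnfrsf12a, Akap12 (0.49) and Tnc (0.54) for Lcn2, and Nabp1 (0.51) and Fhad1 (0.54) for Havcr1. For Clu they were Hnrnpdl (0.11) and Rgs2 (0.11), for Cd44 Mt1 (0.14) and Arid5b (0.14), for Vim Fgl2 (0.13) and Stat3 (0.15), and for Sox9 Smpdl3b (0.22) and Cebpb (0.29), all in log2 units. Of these, Akap12 rose by 3.18 in TLR4 null and by 2.86 in WT kidneys, and Cxcl2, a neutrophil-attracting chemokine gene, by 3.09 in TLR4 null and by 2.96 in WT kidneys.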

How the data were processed

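Total RNA of 12 whole kidneys was hybridised to 1-colour Affymetrix arrays. The authors deposited MAS5 signal intensities, per the submitters' processing notes, which name no version (not given in the sources used here), and no scanner files were used here. The intensities are linear, from 0.0377 to 31317, and the mean of each array, trimmed by 2% at both ends, is 250. Groups came from the sample titles. Of 45101 probe sets, 34945 name 1 gene, 932 several and 9160 none, and 64 are controls. Symbols were updated by Entrez ID except for 204 without a match.

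Signals were taken as log2(signal + 15). A probe set was kept if its signal exceeded the 40th percentile of its array (40.3 to 51.7) on at least 3 of 12 arrays, which left 30304 probe sets and 14316 genes. A gene was represented by its kept probe set with the highest mean, which mattered for the 6422 genes with several. limma 3.58.1 (R 4.3.3, lmFit and eBayes with trend, 8 residual degrees of freedom) fitted 4 group means. Tests were two-sided, with Benjamini-Hochberg adjustment over every gene (or probe set) of a comparison, and calls were made under an adjusted p of 0.05. The steps were tested on simulated data. Tables and figures used Python 3.11.15, numpy 2.4.6, scipy 1.17.1, pandas 2.3.3 and matplotlib 3.10.9.

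The members and gene lists were chosen with earlier results of these data known. Genes named are all members, up to 4 measured genes of each list with the smallest p in the mean response, defining markers, the 2 genes most like each member, and Tlr4. Genes named for missing the threshold, for their direction or for how they passed the filter (Ccn2, Des, Prom1, Lrp2, Cubn, Hyal2, Itga5, Tnfsf12, Cst3, Umod, Slc12a1, Podxl, the collagens) were chosen after their values were seen. Replicate numbers were not taken as pairs: of 18 same-numbered pairs of arrays, deviations from group means correlated at -0.06 to 0.11 and over 0.1 in 1. The ratios of 3' to 5' actin probe sets were 1.89 ± 0.103 (SD) in ischemic and 1.78 ± 0.0606 in sham kidneys (n = 6 each, exact permutation p = 0.0519, adjusted over 6 tests 0.312). Alternatives were 2 other normalizations, pseudocounts of 1 and 60, other filters, other choices of probe set, eBayes without trend, array weights, fewer arrays and a block for the replicate number.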

Additional observations from a re-analysis of the deposited data

How the results depend on the processing

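Over the alternatives, Tnfrsf12a, Lcn2, Clu, Cd44 and Vim kept their ischemia calls in both genotypes. Sox9 was called wherever it was tested in TLR4 null kidneys. That is a description, since its probe set passed the filter only through its ischemic arrays. With a filter at the 60th percentile Sox9 was not tested, which left 6 injury genes called there. The Sox9 probe set 1424950_at was called in WT kidneys in a fit with no filter (1.82, adjusted p = 0.00187). Havcr1 changed its ischemia call. It was called in WT kidneys with the mean of its probe sets (1.85, adjusted p = 0.018), its other probe set, array weights, only the groups compared or without TLR4 null ischemic replicate 3. It was not called in TLR4 null kidneys with no filter (adjusted p = 0.0591), no trend (0.0768) or only the groups compared (0.0657). Injury genes called between sham kidneys were 2 under quantile normalization and with array weights, and 0 without the trend. Between ischemic kidneys they were 1 with a filter at the 60th percentile, with the mean of probe sets and without probe sets suffixed _x_at or _s_at (Clu each time), and 3 with array weights.

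Counts over all genes between sham kidneys were 20 with median scaling, 4 without the trend, 159 with array weights and 82 with only the groups compared. Between ischemic kidneys they were 47 with no filter, 20 without the trend, 164 with array weights and 17 with only the groups compared. Over all probe sets 4735 were called in WT and 5072 in TLR4 null kidneys. With the replicate number as a block, calls over all genes were 2920 in TLR4 null and 2723 in WT kidneys, 33 between sham and 61 between ischemic kidneys and 0 for the difference between responses, and no call of an injury gene changed.

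Leaving out each array in turn gave 2391 to 3058 genes called in TLR4 null and 2062 to 3090 in WT kidneys, 2 to 61 between sham kidneys, 10 to 245 between ischemic kidneys and 0 to 15 for the difference between responses. Injury genes called were 6 to 7 in TLR4 null and 5 to 6 in WT kidneys, 0 to 1 between sham kidneys, 0 to 2 between ischemic kidneys and 0 for the difference between responses. Havcr1 and Sox9 enter the ischemia counts although they passed the filter through their ischemic arrays, so those counts are a description. With all arrays, 9.86% of all genes were called higher in TLR4 null and 9.18% in WT kidneys.

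Signs turned only in differences that were not called. The Havcr1 difference between sham kidneys turned with quantile normalization (0.017), median scaling (0.0082), the mean of probe sets (0.27) and the other probe set (0.57), and without WT sham replicate 1 or 3 or TLR4 null sham replicate 3, with a range of -0.45 to 0.41 over all arrays left out. Between ischemic kidneys Havcr1 turned without TLR4 null ischemic replicate 2 (range -0.27 to 0.97). Tnfrsf12a between ischemic kidneys turned with the mean of probe sets (0.049), the other probe set or no suffixed ones (0.26 in both), and without TLR4 null ischemic replicate 1 (range -0.35 to 0.20). The difference between responses turned for Clu with quantile normalization (0.13) and without WT sham or TLR4 null ischemic replicate 1 (range -0.13 to 0.038), for Vim with the mean of probe sets (0.064), no suffixed ones (0.19) and its other probe sets (0.19 and 0.16), for Tnfrsf12a with array weights (-0.12), and for Havcr1 with its other probe set (-0.17) and without TLR4 null ischemic replicate 2 or sham replicate 3 (range -0.24 to 1.01). Where a cause is not named, the cause was not tested. Signals near background limit Havcr1 and Sox9, whose sham arrays lie near or under the filter.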

Other observations

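Of 9 endothelial genes, 5 fell in TLR4 null and 2 in WT kidneys, and none rose, where 11.7% of all genes were called lower in TLR4 null and 10.5% in WT kidneys. Tek, the angiopoietin receptor, had the largest difference, with mean signals of 152 in TLR4 null ischemic and 390 in TLR4 null sham kidneys, and of 235 in WT ischemic and 508 in WT sham kidneys, or -1.28 ± 0.13 (SE, adjusted p = 6.28e-06) in TLR4 null and -1.07 ± 0.13 (adjusted p = 3.47e-05) in WT kidneys. Flt1, a VEGF receptor gene, was at -0.54 ± 0.16 in TLR4 null and at -0.52 ± 0.16 in WT kidneys, while Pecam1 was at 0.07 ± 0.17 in TLR4 null and -0.05 ± 0.17 in WT kidneys and was not called. The summed signal of the 9 genes was 2593 to 3137 in TLR4 null ischemic and 3659 to 3779 in TLR4 null sham kidneys, and 3166 to 3777 in WT ischemic and 3895 to 4584 in WT sham kidneys.

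Of 8 genes of the loop, distal tubule and collecting duct, 3 fell in TLR4 null and 1 in WT kidneys. Over all genes 11.7% were called lower in TLR4 null and 10.5% in WT kidneys, and these shares stand beside each count given here. Avpr2, the vasopressin receptor of the collecting duct, was at -0.85 ± 0.16 in TLR4 null and at -0.96 ± 0.16 in WT kidneys, and Slc12a1, the transporter of the thick ascending limb, at -0.27 ± 0.11 in TLR4 null and at -0.24 ± 0.11 in WT kidneys, not called. Of 8 proximal tubule genes, Slc5a12, a lactate transporter, and Lrp2 fell in both genotypes, with Slc5a12 at -0.74 ± 0.09 in TLR4 null and at -0.52 ± 0.09 in WT kidneys, and the other 6 were not called. Of 4 podocyte genes past the filter, Podxl fell in TLR4 null kidneys (-0.27 ± 0.09), and none was called in WT kidneys. Of 3 lymphocyte genes past the filter and of 4 fat genes, none was called in either genotype.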
